A study of Mus musculus with 4 samples.

Results

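This account describes the open chromatin regions that differed between creatine transporter-deficient (KO) and wild-type (WT) mouse macrophages after interleukin-4 (IL-4). The members are ATAC-seq peaks found in only 1 of the 2 IL-4 libraries. A KO-only peak was a peak of the KO IL-4 list with no overlap of even 1 bp in the WT IL-4 list, and a WT-only peak was the reverse. There were 3082 KO-only peaks among the 10443 peaks of the KO IL-4 library, or 29.5% (exact 95% interval 28.6 to 30.4). There were 2594 WT-only peaks among the 9930 of the WT IL-4 library, or 26.1% (25.3 to 26.999). Together these 5676 members were drawn from 20373 IL-4 peaks and from 51426 peaks in all 4 lists of the series.

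The cells were bone marrow-derived macrophages of C57BL/6 mice, grown for 5 days in 10% M-CSF, and 50000 cells went into each library. The genotypes were wild-type and Slc6a8-/y, in which the only copy of the X-linked gene is lost in males. Each genotype was left untreated or given IL-4 at 10 ng/mL for 6 h, with 1 library for each of the 4 groups. The study concerned open chromatin during polarization of macrophages without creatine uptake. The labels do not say whether a library came from 1 animal or from several. With 1 library per group no difference could be set against replicate error, so each comparison below is between libraries, not conditions. All intervals are Clopper-Pearson 95% intervals, which express counting error alone, and how deeply each library was sequenced was not known.

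ATAC-seq uses the transposase Tn5, which inserts adapters where DNA is not packed by nucleosomes, so a peak marks an accessible promoter, enhancer or other regulatory element. IL-4 binds a receptor that activates the kinases of the JAK family and the transcription factor STAT6, which drives the alternatively activated state of macrophages with genes such as Arg1, Retnla and Chil3. Slc6a8 encodes the transporter that brings creatine into cells, where creatine kinases use it to buffer ATP.

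Promoters of 8 genes show the kind of sequence that carried a peak in 1 IL-4 library and none in the other. They were chosen because they include a regulator of the IL-4 response (Stat6), a macrophage surface receptor (Trem2), an enzyme of fatty acid synthesis (Fasn), a splicing factor (Srsf2), sensors of foreign DNA (Cgas) and of bacterial wall fragments (Nod2), a transcription factor held back by insulin signalling (Foxo1) and a deacetylase of tubulin (Hdac6). Each line gives the 250 bases upstream of the RefSeq start site (assembly GRCm38.p6, the coordinates of mm10), 5′ to 3′ on the strand of the gene. Capitals mark CCAAT boxes (CCAAT, or ATTGG for the other strand) and GC boxes (GGGCGG or CCGCCC), and boxes that overlap run together. The first 4 lay under KO-only peaks and the last 4 under WT-only peaks.
Stat6: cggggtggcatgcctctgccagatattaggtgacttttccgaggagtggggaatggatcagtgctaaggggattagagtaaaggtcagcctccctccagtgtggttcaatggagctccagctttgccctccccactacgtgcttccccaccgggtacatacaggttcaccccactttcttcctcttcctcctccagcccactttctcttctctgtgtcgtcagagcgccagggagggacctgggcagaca
Trem2: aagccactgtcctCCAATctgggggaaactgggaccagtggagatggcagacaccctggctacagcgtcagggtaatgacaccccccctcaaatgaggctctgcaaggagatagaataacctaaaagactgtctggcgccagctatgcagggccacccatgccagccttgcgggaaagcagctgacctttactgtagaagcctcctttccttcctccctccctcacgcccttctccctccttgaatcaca
Fasn: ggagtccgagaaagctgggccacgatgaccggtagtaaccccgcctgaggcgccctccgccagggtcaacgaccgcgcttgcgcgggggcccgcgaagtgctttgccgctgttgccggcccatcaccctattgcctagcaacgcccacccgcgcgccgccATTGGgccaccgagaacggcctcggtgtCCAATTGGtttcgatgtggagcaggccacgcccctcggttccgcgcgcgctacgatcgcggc
Srsf2: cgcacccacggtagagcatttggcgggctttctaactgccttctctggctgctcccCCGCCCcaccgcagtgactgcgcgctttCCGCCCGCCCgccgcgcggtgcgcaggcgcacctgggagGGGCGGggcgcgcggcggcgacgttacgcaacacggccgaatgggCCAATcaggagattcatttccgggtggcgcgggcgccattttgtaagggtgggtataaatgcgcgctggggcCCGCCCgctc
Cgas: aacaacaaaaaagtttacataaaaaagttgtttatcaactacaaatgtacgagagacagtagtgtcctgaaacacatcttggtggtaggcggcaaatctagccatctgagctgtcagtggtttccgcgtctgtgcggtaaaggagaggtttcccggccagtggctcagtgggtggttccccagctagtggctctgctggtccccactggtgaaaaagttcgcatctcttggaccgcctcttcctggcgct
Nod2: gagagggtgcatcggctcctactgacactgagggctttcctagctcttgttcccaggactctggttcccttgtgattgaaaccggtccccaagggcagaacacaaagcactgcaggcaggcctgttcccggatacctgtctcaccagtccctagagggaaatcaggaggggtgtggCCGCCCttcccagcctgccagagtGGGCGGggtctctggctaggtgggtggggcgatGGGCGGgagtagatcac
Foxo1: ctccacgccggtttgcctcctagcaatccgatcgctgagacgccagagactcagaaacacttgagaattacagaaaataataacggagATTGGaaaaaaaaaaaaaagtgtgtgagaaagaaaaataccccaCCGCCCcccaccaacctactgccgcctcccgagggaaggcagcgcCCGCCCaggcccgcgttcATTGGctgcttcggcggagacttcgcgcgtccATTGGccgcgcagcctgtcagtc
Hdac6: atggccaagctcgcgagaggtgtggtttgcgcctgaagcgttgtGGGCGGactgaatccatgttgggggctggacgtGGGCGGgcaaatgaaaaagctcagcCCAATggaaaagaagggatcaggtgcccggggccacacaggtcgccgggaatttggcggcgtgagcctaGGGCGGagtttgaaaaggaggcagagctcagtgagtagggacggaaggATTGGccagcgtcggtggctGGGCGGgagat

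Stat6 (chr10:127642736-127642985, plus strand) had 205 of its 250 bases under a KO-only peak and held no such box. Trem2 (chr17:48346151-48346400, plus strand) had 242 bases under its KO-only peak and 1 CCAAT box. Fasn (chr11:120824548-120824797, minus strand) was covered in full and held 3 CCAAT boxes, a pair of them overlapping, while Srsf2 (chr11:116853095-116853344, minus strand) held 1 CCAAT box and 5 GC boxes. These 4 were open by peak call in KO IL-4 and not in WT IL-4. Of the WT-only promoters, Cgas (chr9:78443238-78443487, minus strand) had 214 bases under the peak and no box. Nod2 (chr8:88647097-88647346, plus strand) held 3 GC boxes and Foxo1 (chr3:52268087-52268336, plus strand) 3 CCAAT and 2 GC boxes. Hdac6 (chrX:7947890-7948139, minus strand) held 2 CCAAT and 4 GC boxes. In each set 3 of the 4 printed promoters held at least 1 of these boxes. Over all RefSeq promoter windows (300 bases) 46.2% held a GC box and 38.2% a CCAAT box. The printed promoters were picked by gene, so nothing about the sets is read from them.

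The labels were checked as far as peaks allow. No library had a peak within 10 kb of Slc6a8 (chrX:73673133-73682502), so the targeted gene gave no check of genotype. Of 10 macrophage markers, 7 had a peak at the locus in WT IL-4 and 5 in KO IL-4, with Itgam, Cebpb and Mertk at 0 in both and Spi1 and Lyz2 at 0 in KO IL-4 alone. Here and below a locus is the span of a protein-coding gene extended by 10 kb on each side. Fibroblast markers (9 genes) had none in either IL-4 library, B cell markers 1 of 8 in each and T cell markers 3 of 10 in each. Dendritic cell markers had a peak at 3 of 8 loci in WT IL-4, and at 5 of 8 in KO IL-4 and in each untreated library. KO-only peaks lay at Zbtb46 (score 74.7), Flt3 (51.6) and Clec9a (51.2), the last lying inside the neighbouring gene Clec1a. The Flt3 peak overlapped a peak in both untreated libraries, the Clec9a peak in WT untreated alone and the Zbtb46 peak in neither. Markers of neurons and hepatocytes had a peak at 2 of 10 loci in WT IL-4 and 1 of 10 in KO IL-4. Neutrophil markers had a peak at 2 of 12 loci in WT IL-4 and 1 of 12 in KO IL-4. Whether other cells had a part in any difference described here was not tested.

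Library-specific peaks were mostly the weaker peaks of their own list. The score is the value the authors deposited for each peak, and it ranks peaks only within its list. Scores of different libraries are given side by side below as each list has them, and no change is read from them. KO-only peaks had a median score of 63.2 and a median width of 424 bp, against 105 and 566 bp for the KO IL-4 peaks shared with WT. WT-only peaks had a median score of 62.3 and a median width of 489 bp, against 101 and 629 bp for their shared counterparts. In the lowest score decile of the KO IL-4 list 65.0% (62.0 to 67.9) of the peaks were KO-only, and in the highest decile 2 of 1045 were, or 0.191%. The WT IL-4 list ran from 59.0% (55.9 to 62.1) in the lowest decile to 0 of 993 in the highest, for which the interval reaches 0.371%. Both lists therefore shared nearly all of their strongest peaks. A score of 100 or more was reached by 222 KO-only and 156 WT-only peaks.

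**Figure D1:**
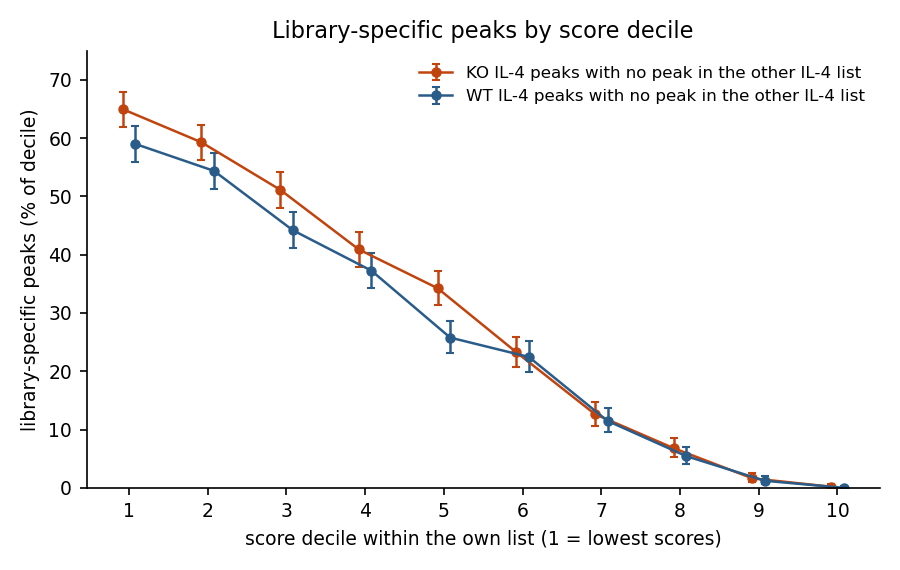
Share of peaks that were library-specific (y axis, percent of the decile) against score decile within the own list (x axis, 1 = lowest scores), for the KO IL-4 and the WT IL-4 library, with exact 95% intervals for counting error. Both curves fall from 65.0% and 59.0% in the lowest decile to 0.191% and 0 in the highest.

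KO-only peaks outnumbered WT-only peaks, with a log2 ratio of the counts of 0.25 (0.17 to 0.32). The balance depended on list length: when both lists were limited to their 9930 highest scores it was -0.01 (-0.09 to 0.07), a balance that equal lengths force. Merged, both lists gave 12993 regions, of which 7317 (56.3%, 55.5 to 57.2) held a peak of both libraries. The 1 bp rule left few near misses. Of the KO-only peaks 91 lay within 500 bp of a WT IL-4 peak, and of the WT-only peaks 68 lay within 500 bp of a KO IL-4 peak. The closest KO-only peak lay 1 bp from a WT IL-4 peak, inside Pdpn (podoplanin, score 51.5), and the closest WT-only peak 10 bp from a KO IL-4 peak, distal to Tle1 (a corepressor, score 54.5). Just inside the shared class, the smallest overlap was 3 bp, and 2 shared peaks overlapped by under 50 bp. On chromosome X, where Slc6a8 lies, 67 of 185 KO IL-4 peaks (36.2%) were KO-only and 45 of 164 WT IL-4 peaks (27.4%) were WT-only. Over all peaks these shares were 29.5% and 26.1%. Among other chromosomes the KO-only share reached 34.6% (chromosome 15) and the WT-only share 31.3% (chromosome 19). Whether chromosome X differs was not tested.

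KO-only and WT-only peaks lay at the same kinds of position. A gene edge here means within 1 kb of either end of a protein-coding gene. Peaks inside a span but not at an edge are called inside, those outside but within 10 kb are called near, and the rest distal. Edges held 35.0% (33.3 to 36.7) of the KO-only and 34.3% (32.5 to 36.2) of the WT-only peaks, against 60.3% (59.1 to 61.4) of the shared KO IL-4 peaks. Inside positions held 34.7% and 34.6%, near positions 9.21% and 9.98%, and distal positions 21.1% of either set, against 22.0%, 5.16% and 12.5% of the shared peaks. The intervals of KO-only and WT-only peaks overlapped in all 4 classes, while both stood apart from the shared peaks.

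Most library-specific peaks after IL-4 were not absent from untreated cells. Of the KO-only peaks 1499 (48.6%, 46.9 to 50.4) overlapped a peak in both untreated libraries, 634 (20.6%) in WT untreated alone, 258 (8.37%) in KO untreated alone and 691 (22.4%, 20.96 to 23.9) in neither. The WT-only peaks gave 1243 (47.9%), 553 (21.3%), 213 (8.21%) and 585 (22.6%) in the same order. A KO-only peak was overlapped in WT untreated more often (69.2%) than in KO untreated (57.0%), but so was a WT-only peak (69.2% and 56.1%), and the WT untreated list was the longer (17339 against 13714 peaks). With both untreated lists limited to 13714 peaks, KO-only peaks were overlapped at 57.0% in either list and WT-only peaks at 56.4% in WT and 56.1% in KO. Where overlapped, KO-only peaks met untreated peaks of median percentile 45.9 in the WT and 40.2 in the KO untreated list, and WT-only peaks met 44.9 and 38.8. Of the shared KO IL-4 peaks, 91.1% had a peak in both untreated libraries and 1.81% in neither. Members with a peak in both untreated libraries lay at edges more often (45.4% of KO-only, 43.5% of WT-only) than members with none in either (18.5% and 20.9%).

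**Figure D2:**
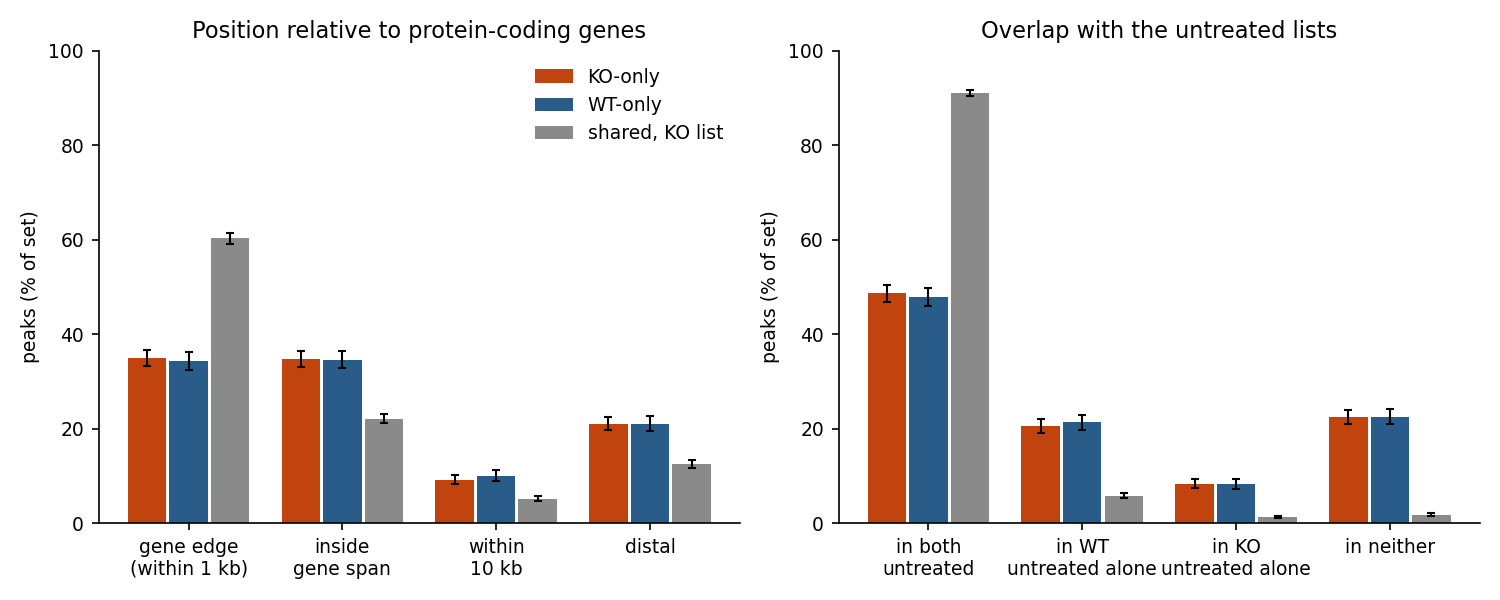
Left, percent of KO-only, WT-only and shared peaks (KO IL-4 list) at gene edges, inside gene spans, within 10 kb and distal; right, percent of the same sets with a peak in both untreated libraries, 1 of them or neither, with exact 95% intervals for counting error. KO-only and WT-only bars lie within each other's intervals in every class, while shared peaks stand higher at edges (60.3%) and in both untreated libraries (91.1%).

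Of the 25 highest KO-only peaks, 16 lay at gene edges and 22 overlapped a peak in both untreated libraries. A RefSeq start site lay within 1 kb of 10 of these peaks. Start sites were available for 17469 of 21887 genes and not for Bhlhe40 or Slc16a7, so other peaks may lie at starts that were not listed. The highest KO-only peak (score 227, percentile 93.5 of the KO IL-4 list) lay at the common edge of Hccs and Gm15246 (chrX:169320212-169320778). Hccs encodes the enzyme that attaches heme to cytochrome c. Untreated libraries had overlapping peaks of 258 in WT and 127 in KO, and the nearest WT IL-4 peak was 283281 bp away. Next came the edge of Srsf2 and Mfsd11 (213; chr11:116852897-116853841), where WT untreated scored 219 and KO untreated 236. The zinc finger gene Zfp141 (186), Wdr5b (184), a WD-repeat gene related to the chromatin protein Wdr5, and Srrm1 (181), a splicing coactivator, followed, each with a peak in both untreated libraries. All 5 lay at a gene edge.

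Slco4a1, an organic anion transporter, had a KO-only edge peak of 171 with untreated peaks of 162 in WT and 163 in KO. Pla2g4a encodes the phospholipase that releases arachidonic acid from membranes. It had a KO-only inside peak of 144, at percentile 79.6 of its list, with untreated peaks of 84.2 in WT (percentile 38.8) and 63.9 in KO (percentile 22.6). Slc16a7, the monocarboxylate transporter MCT2, was one of 2 genes among the 25 whose peak was found in KO untreated and not in WT untreated. Its edge peak (chr10:125388754-125389954) scored 157 with IL-4 and 132 without in KO cells, and neither WT library had a peak that overlaps it. A WT untreated peak of 53.5 (chr10:125389955-125390390) begins at the base after the KO IL-4 peak ends, so the absence from WT untreated rests on the overlap rule. The other was Mid1, a microtubule-associated ubiquitin ligase on chromosome X, with a near peak of 181 after IL-4 and 50.0 untreated, both in KO cells. The KO IL-4 peak stood at percentile 87.9 of its list, and the untreated one at 0.0146. Ppm1l, a protein phosphatase gene, had the reverse pattern, with an edge peak of 143 in KO IL-4 and 125 in WT untreated and none in KO untreated. Further edge peaks lay at Ptpn12, a tyrosine phosphatase (154), Rab32, a small GTPase of lysosome-related organelles (152), and Stom, which encodes the membrane protein stomatin (141), all with a peak in both untreated libraries. The highest distal peak, 36967 bp from Hspa13, a gene of the Hsp70 family, scored 174 and had untreated peaks of 159 in WT and 86.6 in KO.

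**Figure D3:**
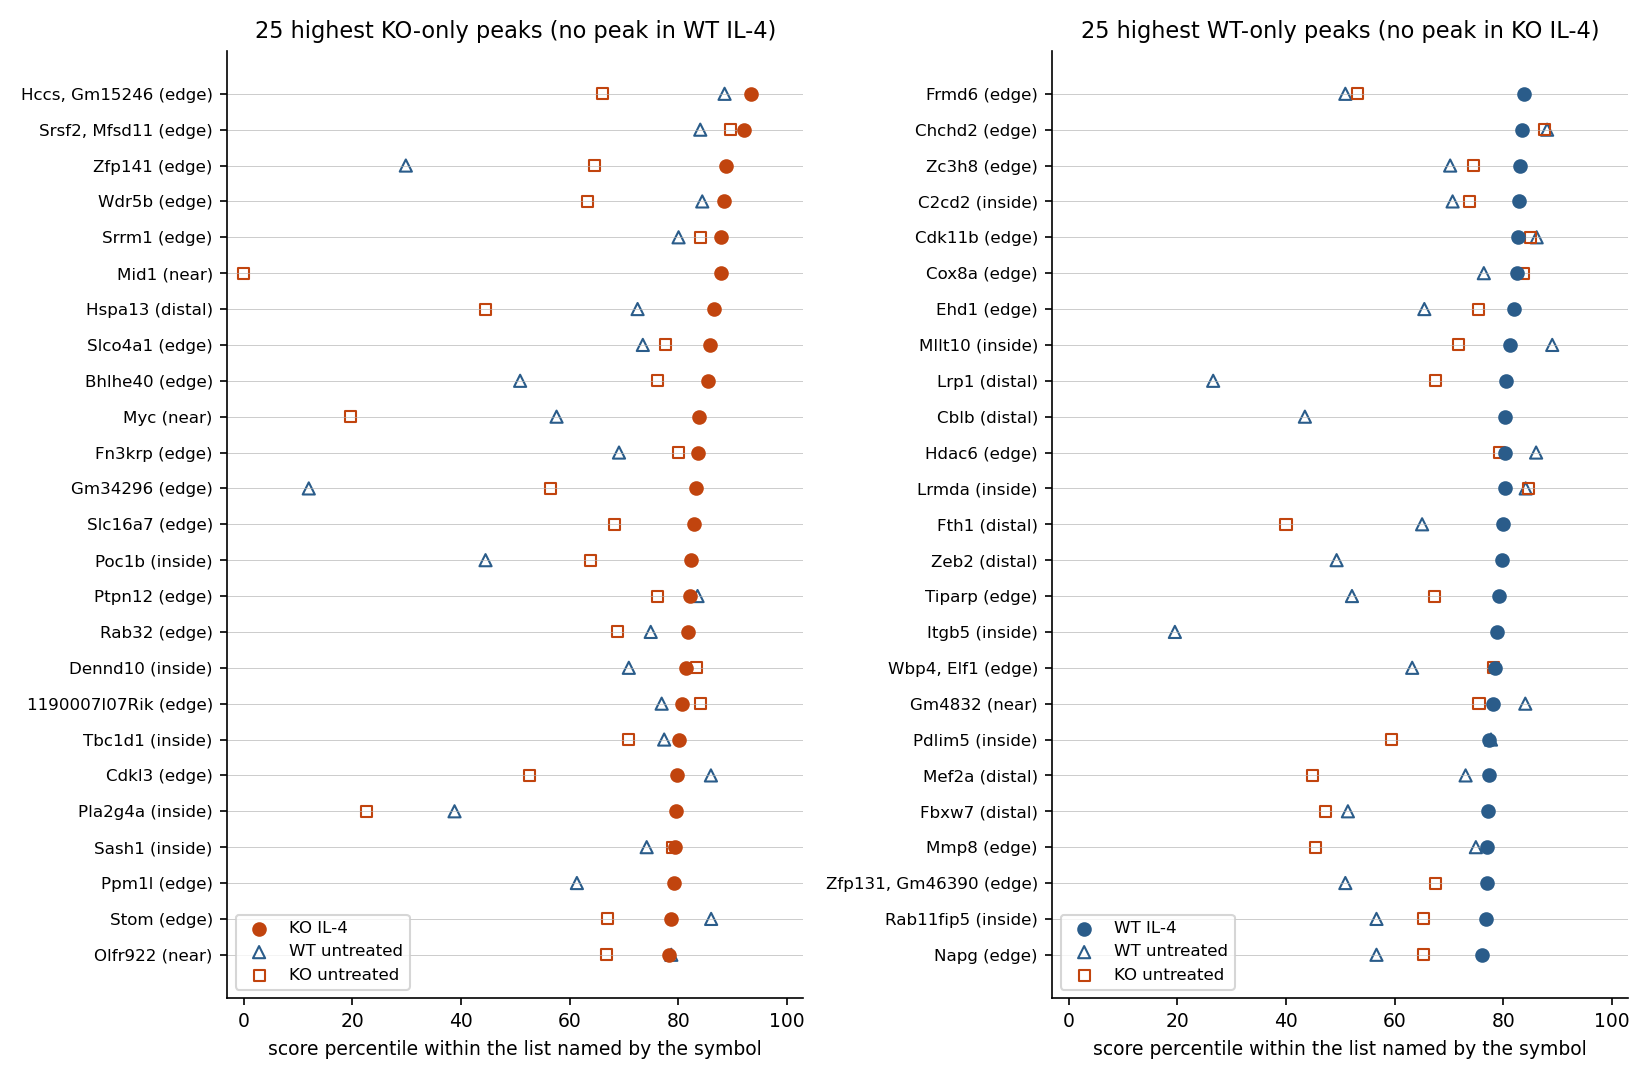
The 25 highest KO-only peaks (left) and WT-only peaks (right), with the score percentile of the peak within its own IL-4 list (filled circles) and of the overlapping peak within each untreated list (open symbols); a missing open symbol means no overlapping untreated peak. In each panel 22 of the 25 have both open symbols, and the exceptions are Mid1, Slc16a7 and Ppm1l on the left and Cblb, Zeb2 and Itgb5 on the right.

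Of the 25 highest WT-only peaks, 12 lay at gene edges and 6 were distal, and 22 overlapped a peak in both untreated libraries. The highest was at the edge of Frmd6, a FERM-domain gene of the Hippo pathway (157, percentile 83.8; chr12:70825076-70825835), with untreated peaks of 103 in WT and 99.5 in KO. Chchd2, which encodes a mitochondrial protein, scored 155 (untreated peaks of 253 in WT and 219 in KO), and Cox8a, a subunit of cytochrome c oxidase, scored 151 (175 and 194). Cdk11b, a cyclin-dependent kinase (152; untreated 236 and 202), and Zc3h8, a zinc finger gene (154; 150.1 and 152), were likewise open in both untreated libraries. At Hdac6 the edge peak (chrX:7947693-7948353) scored 235 in WT untreated, 170.1 in KO untreated and 144 in WT IL-4, and only KO IL-4 had none. Inside peaks at C2cd2 (153) and Mllt10 (147), a chromatin-binding cofactor, lay within 1 kb of an internal RefSeq start site.

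Of the 6 distal peaks among the 25, the highest lay 10497 bp from Lrp1, an endocytic lipoprotein receptor, and scored 145 (chr10:127631645-127632430) with untreated peaks of 70.1 in WT and 130.5 in KO. Cblb, a ubiquitin ligase that restrains receptor signalling, had a distal WT-only peak 30631 bp away (144; WT untreated 90.6). Itgb5, the integrin beta 5 subunit, had an inside peak (139; WT untreated 64.2). At neither of these sites did a KO library have a peak, although both genes had other peaks in both KO libraries. The same absence at the site held for a peak of 142 whose nearest gene, Zeb2, was 1253361 bp away (WT untreated 99.9). Distal peaks of both untreated libraries and WT IL-4, but not KO IL-4, had as nearest genes Fth1, the ferritin heavy chain (142), Mef2a, a MADS-box transcription factor (135), and Fbxw7, a ubiquitin ligase subunit (134). At Elf1 and Wbp4 the WT-only peak (138) lay 95 bp from a KO IL-4 peak, the closest call among the 50 peaks named from both lists. The other 49 were more than 500 bp from any peak of the other IL-4 library. Mmp8, a neutrophil collagenase, had a WT-only edge peak of 134 (WT untreated 168, KO untreated 87.7).

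Peaks called in 1 IL-4 library and in no untreated library were weaker. Among KO-only peaks the highest of this kind lay inside Kcnq5, a potassium channel gene (124), and 33816 bp from Arsb, a lysosomal sulfatase (118). Cd47, the "do not eat me" ligand of Sirpa, had one 58650 bp away (113). Edge peaks of this kind lay at Pinx1, a telomerase inhibitor (103), and at Inpp5e and Sec16a (101). Among WT-only peaks the highest lay 7171 bp from Bmp6, a growth factor of the BMP family (123), and 88882 bp from Myc (101). Of the 10 highest in each direction, 2 KO-only and 0 WT-only peaks lay at an edge.

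At the level of genes, 7319 protein-coding genes had an edge peak in either IL-4 library and 5236 in both. An edge peak in KO IL-4 alone was found at 1114 genes (15.2% of those with one in either) and in WT IL-4 alone at 969 (13.2%). Of these, 736 and 601 had an edge peak in both untreated libraries, and 102 and 121 in neither. Loci of 3044 genes (13.9% of 21887) held a KO-only peak and those of 2620 (12%) a WT-only peak, and 569 held both kinds. The 536 genes of 27 functional lists were set beside this background. Of the 257 with an edge peak in either library, 50 had it in KO IL-4 alone (19.5%) and 35 in WT IL-4 alone (13.6%). The WT share was close to that over all genes (13.2%) and the KO share was higher (15.2% over all genes), which was not tested. Their loci held 138 KO-only and 113 WT-only peaks. Within 10 kb of any gene lay 2432 KO-only and 2047 WT-only peaks, and the counts of each list below are to be read beside these. For every list, as for all genes, the median difference in locus peaks between KO IL-4 and WT IL-4 was 0.

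**Figure D4:**
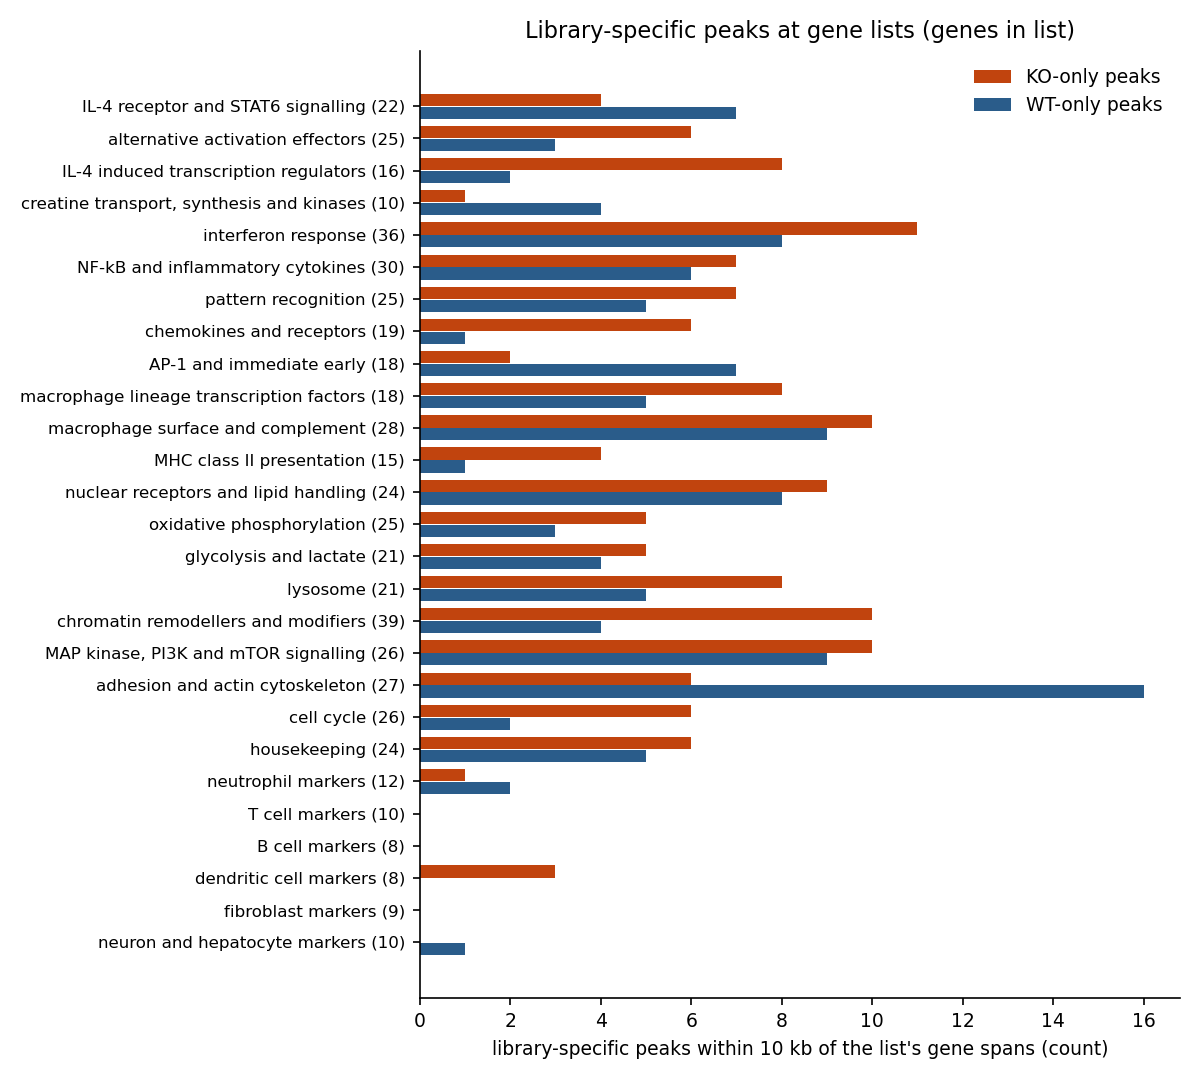
Number of KO-only and WT-only peaks (x axis, count) within 10 kb of the genes of each list (y axis, number of genes in brackets). Most lists held similar numbers of both kinds. The widest gaps were 6 KO-only against 16 WT-only peaks for adhesion and actin genes, 8 against 2 for IL-4 induced regulators and 10 against 4 for chromatin genes. Over all peaks, 29.5% of KO IL-4 and 26.1% of WT IL-4 peaks were library-specific.

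Among genes of the IL-4 receptor and its signalling (22 genes), 4 KO-only and 7 WT-only peaks were found. They came from 23 KO IL-4 and 25 WT IL-4 peaks, and over all peaks the shares were 29.5% and 26.1%. Il4ra, which encodes the receptor alpha chain, had no locus peak in either IL-4 library. The edge of Stat6 (chr10:127642781-127643191) was called in 3 of the 4 libraries, with scores of 92.2 in WT untreated, 77.3 in KO untreated and, after IL-4, 59.3 in KO, the last at percentile 18.3. WT IL-4 was the library without it. The WT-only distal peak named above for Lrp1 (145 in WT IL-4, none in KO IL-4) lies between Lrp1 and Stat6, just beyond 10 kb from Stat6, and goes the other way. Pik3cd, a catalytic subunit of PI3 kinase, had a KO-only edge peak (64.7) with untreated peaks of 75.8 in WT and 110.4 in KO. Pik3r1, the regulatory subunit of PI3 kinase, showed the opposite, with edge peaks of 82.6 and 68.6 in WT IL-4, both overlapping 1 peak of 246 in WT untreated and of 196 in KO untreated, and no locus peak in KO IL-4. Socs3, a feedback inhibitor of cytokine receptors, had a weak KO-only near peak (52.2; KO untreated 60.2). Jak1, a receptor-associated kinase, had a WT-only inside peak (61.7) that KO untreated shared (84.1) and WT untreated did not.

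Transcription regulators induced by IL-4 (16 genes) held 8 KO-only peaks among 20 KO IL-4 peaks and 2 WT-only peaks among 14 WT IL-4 peaks. Over all peaks these shares were 29.5% and 26.1%. Of the 8 KO-only peaks 3 lay at Myc and 1 was the Stat6 edge peak, which the receptor list also counts. Bhlhe40 and Myc carried the strongest peaks. At Bhlhe40, a basic helix-loop-helix repressor, the edge peak (chr6:108659154-108660772) scored 169 after IL-4 and 158 untreated in KO cells. WT untreated had peaks of 72.9 and 103 there, and WT IL-4 had none within 87606 bp. At Myc, the cell growth regulator, KO IL-4 had peaks of 61.2 at the edge, 58.3 at 1703 bp and 161 at 9155 bp from the gene. WT untreated had 92.0 and 116 at the edge and the 9155 bp site, KO untreated 58.3, 81.1 and 61.9 at all 3, and WT IL-4 none. Both loci were thus open in 3 of the 4 libraries, and WT IL-4 was the exception. Kdm6b, a histone H3 lysine 27 demethylase, had a KO-only inside peak of 62.9 (untreated 53.7 in WT and 84.8 in KO) that lay 1086 bp from a WT IL-4 peak. Rbpj, the DNA-binding factor of Notch signalling, had a KO-only near peak found in no other library (71.4). On the other side, Maf, a macrophage transcription factor, had a WT-only edge peak of 89.3 (untreated 93.9 in WT and 126 in KO). Bhlhe41, the relative of Bhlhe40, had a WT-only near peak of 79.2 (KO untreated 61.6). Egr2 and Irf1 had 2 locus peaks in each IL-4 library and no library-specific one.

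Effectors of alternative activation (25 genes) held 6 KO-only peaks among 10 KO IL-4 peaks and 3 WT-only peaks among 7 WT IL-4 peaks. Over all peaks these shares were 29.5% and 26.1%. Retnla and Chil3 had no locus peak in any library and Mrc1 none after IL-4. At Arg1, which encodes the arginase that breaks down arginine, the WT-only peak (chr10:24930058-24930590, 2588 bp from the gene) scored 121 in WT IL-4, at percentile 72.0. The same site scored 64.9 in WT untreated (percentile 20.4) and 59.8 in KO untreated (percentile 16.6), and KO IL-4 had no peak anywhere at the locus. A second site on the other side of the gene was called in both untreated libraries (120.01 in WT and 67.2 in KO) and in neither IL-4 library. Ccl24, an eosinophil-attracting chemokine, went the other way, with an edge peak of 78.6 in KO IL-4 and 97.1 in WT untreated and none in the other libraries. Ptgs1, cyclooxygenase 1, had a shared edge peak (91.0 in WT IL-4 and 93.8 in KO IL-4) and a second, inside peak in KO IL-4 alone (70.6), which neither untreated library had. Tgm2, a transglutaminase, had an inside KO-only peak of 75.04 (untreated 204 in WT and 138 in KO) and an edge peak of 51.3 found in no other library. The single-library calls at Arg1 and Ccl24 therefore pointed in opposite directions within the same list.

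**Figure D5:**
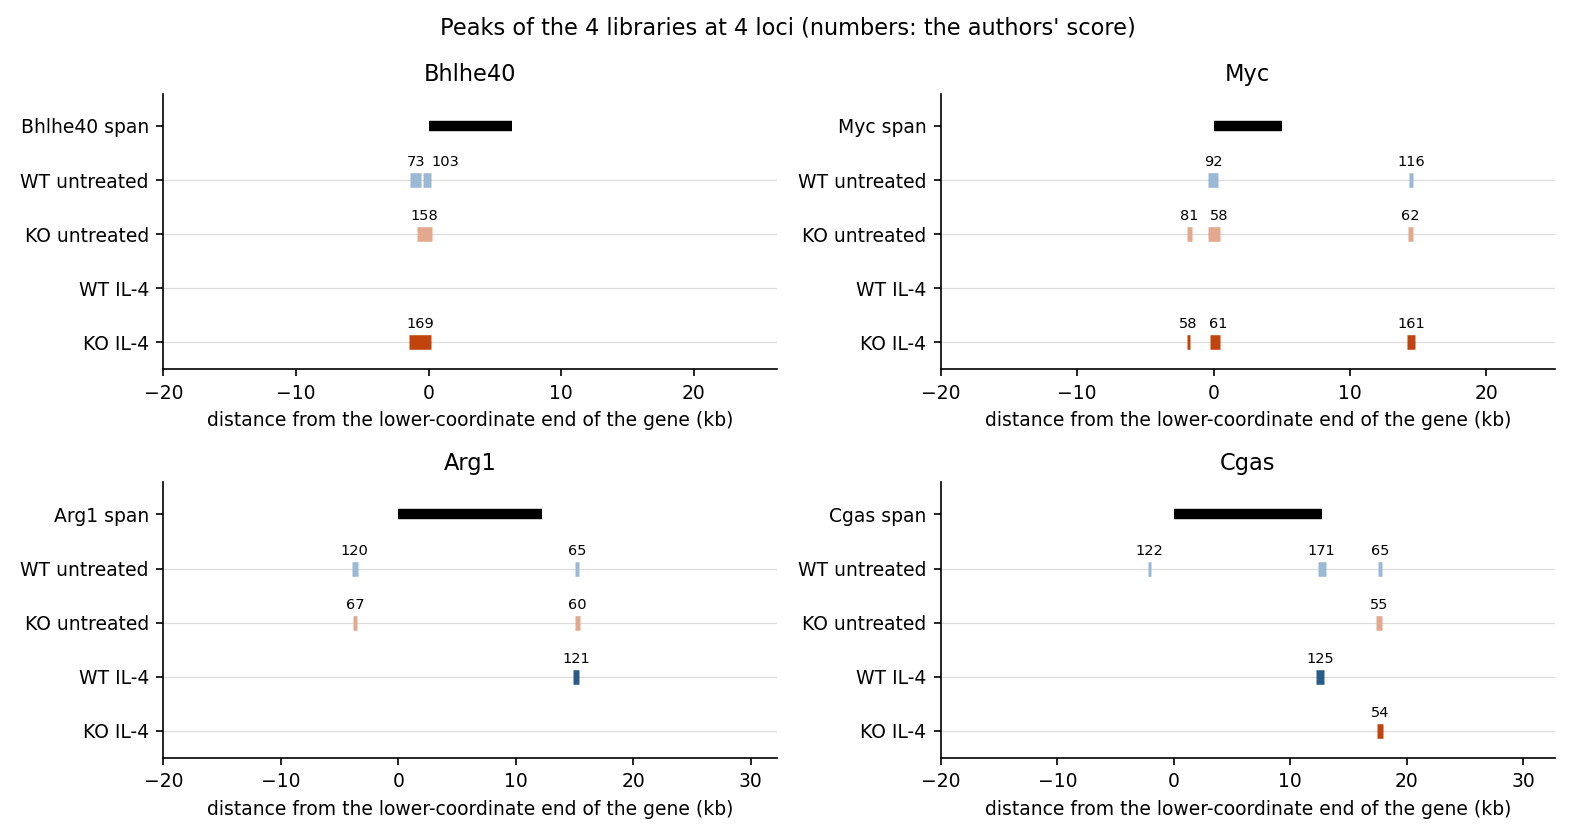
Peaks of the 4 libraries at Bhlhe40, Myc, Arg1 and Cgas (x axis, distance in kb from the lower-coordinate end of the gene; black bar, gene span; coloured bars, peaks to scale with the authors' score above). WT IL-4 has no peak at Bhlhe40 and Myc, KO IL-4 has none at Arg1, and the Cgas edge peak is found in WT untreated (171) and WT IL-4 (125) and in neither KO library.

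Genes of creatine transport, synthesis and use (10 genes) held 1 KO-only and 4 WT-only peaks. They were found among only 4 KO IL-4 and 7 WT IL-4 peaks, and over all peaks the shares were 29.5% and 26.1%. Slc25a4, a mitochondrial ADP/ATP carrier, had the KO-only edge peak (100.4; untreated 182 in WT and 147 in KO). Its relative Slc25a5 had a WT-only near peak 8817 bp away (119.9; untreated 112 in WT and 124 in KO). The muscle creatine kinase gene Ckm had a WT-only edge peak of 74.8 (WT untreated 78.3, none in KO), and Ckb, the brain-type creatine kinase, also had an edge peak in WT IL-4 alone. A WT-only peak of 63.1 within 10 kb of Gamt, the methyltransferase of creatine synthesis, lay at the edge of Ndufs7. Both untreated libraries had a peak there.

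Interferon response genes (36 matched) held 11 KO-only and 8 WT-only peaks. Edge peaks in KO IL-4 alone included those at Ifit2 and Ifit3, genes of antiviral RNA-binding proteins, and edge peaks in WT IL-4 alone lay at Cgas, Irf3, Irf9 and Usp18. The edge peak of Cgas, the cytosolic DNA sensor, shared with its neighbour Mto1 (chr9:78442749-78443451), scored 125 in WT IL-4 and 171 in WT untreated and was absent from both KO libraries. Irf9, a transcription factor of the interferon response, scored 90.2 in WT IL-4 (81.7 in WT untreated and 93.3 in KO untreated). Ifnar2, a chain of the type I interferon receptor, had 3 KO-only peaks at its locus (84.7, 69.3 and 54.6), which it shares in part with Il10rb. Both untreated libraries overlapped the first and the last of these, and KO untreated alone the second.

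Genes of NF-kB and inflammatory cytokines (30 genes) held 7 KO-only and 6 WT-only peaks. At Tnf, the tumour necrosis factor gene, a peak 960 bp from a gene end (chr17:35200389-35201047) scored 121 in WT IL-4 and 87.7 in WT untreated. Neither KO library had one at this site, and the nearest KO IL-4 peak lay 34886 bp away. Rela, an NF-kB subunit, had a weak WT-only edge peak (58.9, untreated 51.2 in WT and 50.3 in KO). Nfkbia and Chuk, an inhibitor and a kinase of the pathway, also had edge peaks in WT IL-4 alone. KO IL-4 alone had edge peaks at Il10, an anti-inflammatory cytokine (71.4; WT untreated 140, none in KO untreated), Il12b, a subunit of IL-12 (64.4, in no untreated library), and the costimulatory ligand Cd80. Pattern recognition genes (25) held 7 and 5. Nod2, the sensor of muramyl dipeptide, had a WT-only edge peak of 79.6 (WT untreated 108, none in KO untreated). Tlr6 had one of 52.0, found in no untreated library. Ly96, the partner of Tlr4, had a KO-only edge peak of 68.5 (WT untreated 142, none in KO untreated), and Irak2, a kinase of Toll-like receptor signalling, one of 85.3 (60.7 and 63.9).

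Chemokines and their receptors (19 genes) held 6 KO-only peaks among 10 KO IL-4 peaks and 1 WT-only peak among 5 WT IL-4 peaks. Over all peaks these shares were 29.5% and 26.1%, and the counts of this list are small. Ccl9, a monocyte-attracting chemokine, had KO-only edge peaks of 64.9 (in no untreated library) and 51.3 (in both). Cxcr4, the receptor of Cxcl12, had an edge peak in KO IL-4 alone. The highest KO-only peak of the list, 82.1 at the Cxcl16 locus, lay at the edge of Med11. The WT-only peak lay 1720 bp from Ccrl2, an atypical chemokine receptor (60.8). Both untreated libraries had peaks at the Med11 and Ccrl2 sites. AP-1 and immediate early genes (18) held 2 KO-only peaks among 16 KO IL-4 peaks and 7 WT-only peaks among 21 WT IL-4 peaks. Fosl2, a Fos family member, had a KO-only edge peak of 135 (untreated 83.7 in WT and 91.9 in KO), and Ier3 one of 102 (141 and 101). Of the 7 WT-only peaks none lay at an edge of a list gene: the highest were near Fosb (107; untreated 82.2 and 67.8), Dusp1, a phosphatase of MAP kinases (79.6; 135 and 117), and Ier2 (76.9; 90.7 in WT untreated alone).

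Macrophage genes gave library-specific peaks in both directions. Lineage transcription factors (18 genes) held 8 KO-only and 5 WT-only peaks. Spi1, which encodes the lineage factor PU.1, had a WT-only inside peak of 69.2 (WT untreated 58.8, none in KO untreated), and a peak just beyond the 10 kb limit was called in both IL-4 libraries (185 in WT and 136 in KO). KO-only peaks lay inside Nfe2l2, the regulator of the oxidative stress response (64.2), and inside Bach1, a repressor of heme oxygenase (62.1). Another lay at the edge of Klf6, a Krüppel-like factor (61.4). The Nfe2l2 and Klf6 sites had a peak in both untreated libraries, and the Bach1 site in WT untreated alone. Tfeb, the regulator of lysosomal genes, had an edge peak in KO IL-4 alone and a WT-only inside peak (64.1; WT untreated 69.5). Surface and complement genes (28) held 10 and 9. Edge peaks in KO IL-4 alone lay at Laptm5, a lysosomal membrane protein (93.6; untreated 169 and 102), Trem2, a lipid-sensing receptor (77.6; 108 and 84.0), C1qb and Cd68. Edge peaks in WT IL-4 alone lay at Sirpa, the inhibitory receptor for Cd47 (121; WT untreated 115, none in KO untreated), Tyrobp, the signalling adaptor DAP12 (61.7, in no untreated library), and Lyz2, lysozyme. Sirpa also had peaks at other sites of its locus, of 71.6 and 92.4 in WT IL-4 and 72.4 and 90.2 in KO IL-4, which both untreated libraries had too. MHC class II genes (15) held 4 KO-only peaks among 9 KO IL-4 peaks and 1 WT-only peak among 6 WT IL-4 peaks. Over all peaks these shares were 29.5% and 26.1%. No gene of this list had an edge peak in 1 IL-4 library alone. The highest KO-only peak lay inside Ctss, a protease of antigen processing (72.4, KO untreated 56.7 alone). Next came one between H2-Aa and H2-Eb1 (70.8), and the WT-only peak lay inside Ciita, the class II transactivator (57.1). No untreated library had a peak at the H2-Aa or the Ciita site.

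Metabolic genes were split as well. Nuclear receptors and lipid genes (24) held 9 KO-only and 8 WT-only peaks. Fasn, fatty acid synthase, had a KO-only edge peak of 139.6 (untreated 193 in WT and 151 in KO), and its nearest WT IL-4 peak was 96083 bp away. Cpt1a, which imports fatty acids into mitochondria, had a KO-only edge peak of 52.2, found in no untreated library. It lay 181 bp from a WT IL-4 peak. A stronger KO-only peak at the Cpt1a locus (114, in both untreated libraries too) lay at the edge of Tesmin. WT-only peaks lay at the edge of Nr1h2, an oxysterol receptor (119; untreated 159 and 122), at Rxrb, its dimer partner (64.1; WT untreated 83.8 alone), and inside Srebf1, the activator of lipid synthesis (107; WT untreated 82.9 alone). Oxidative phosphorylation genes (25) held 5 and 3. Of the IL-4 libraries, KO alone had edge peaks at Ndufs1 (112), Cox5b (73.9) and Atp5a1, and WT alone at Ndufb3 (107) and Sdhc (54.9). Both untreated libraries had peaks that overlap those at Ndufs1, Cox5b, Ndufb3 and Sdhc. Glycolysis genes (21) held 5 and 4, the highest inside Hk2, a hexokinase (KO-only, 126; untreated 131 and 129), and near Ldha, lactate dehydrogenase A (WT-only, 97; WT untreated 124 alone). Lysosomal genes (21) held 8 and 5. They included KO-only peaks at subunits of the proton pump, Atp6v1h (106) and Atp6v1a (97.4, 80 bp from a WT IL-4 peak). A WT-only peak lay at the protease Ctsd (80.4), and both untreated libraries had a peak at each of these sites.

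Chromatin genes (39) held 10 KO-only peaks among 52 KO IL-4 peaks and 4 WT-only peaks among 46 WT IL-4 peaks. Over all peaks these shares were 29.5% and 26.1%. Edge peaks in KO IL-4 alone lay at Pbrm1 (70.2), Arid2, Smarcc2 and Smarcd1, all subunits of SWI/SNF nucleosome remodellers, and no list gene had an edge peak in WT IL-4 alone. These 4 stood beside 19 list genes with an edge peak in both IL-4 libraries. Of all genes with an edge peak in either library, 15.2% had it in KO IL-4 alone and 13.2% in WT IL-4 alone. The WT-only peaks lay inside Dnmt3a, a DNA methyltransferase (108; untreated 125 and 79.5), inside Tet3, a DNA demethylase (67.8), within 10 kb of Dnmt3a but closer to Dtnb (51.4), and within 10 kb of Arid2 inside Gm38469 (99.6, 224 bp from a KO IL-4 peak). Arid2 therefore had an edge peak in KO IL-4 alone and a WT-only peak elsewhere at its locus. Both untreated libraries had peaks at the Pbrm1, Tet3 and Gm38469 sites, and WT untreated alone at the site closer to Dtnb.

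MAP kinase, PI3K and mTOR genes (26) held 10 KO-only and 9 WT-only peaks. A KO-only edge peak lay at Inpp5d, the lipid phosphatase SHIP1 (76.7, KO untreated 54.4, none in WT untreated). Others lay at Map3k5 (63.2, in both untreated libraries too) and Mapk3, the kinase ERK1 (67.5, WT untreated 89.4 alone). WT-only edge peaks lay at Foxo1 (chr3:52267851-52268619, 113 in WT IL-4 and 106 in WT untreated, none in either KO library) and at Dusp4, a MAP kinase phosphatase (83.4; WT untreated 79.6 alone).

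Adhesion and actin genes (27) were the list with the widest gap in counts. Of 31 KO IL-4 peaks at their loci 6 were KO-only, and of 41 WT IL-4 peaks 16 were WT-only. Over all peaks, 29.5% of KO IL-4 and 26.1% of WT IL-4 peaks were library-specific. It is the most uneven of 27 lists chosen with earlier results known, and the gap was not tested. Edge peaks in WT IL-4 alone lay at Arpc2, a subunit of the actin-branching complex, Dock8 and Elmo1, activators of small GTPases, and Fermt3, the kindlin of blood cells, and in KO IL-4 alone at no gene. WT-only inside peaks lay at Itgav, the integrin alpha V subunit (96.8, in both untreated libraries too, and 57.7, in neither). Another lay at Lcp1, an actin-bundling protein (94.97, untreated 56.9 in WT and 134 in KO). The actin gene Actb had a peak of each kind, KO-only 80.3 and WT-only 88.4, each overlapped in WT untreated alone. Arpc2 had KO-only peaks of 77.0 and 64.7 away from its edges, each overlapped in both untreated libraries. The 16 peaks lay at 10 genes, and the highest of them, at Itgav, ranked at percentile 58.9 within its list.

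Cell cycle genes (26) held 6 KO-only peaks among 31 KO IL-4 peaks and 2 WT-only peaks among 27 WT IL-4 peaks. Over all peaks these shares were 29.5% and 26.1%. The highest lay at the edge of Cdk2 (KO-only, 85.8) and of Cdkn1b, the cell cycle inhibitor p27 (WT-only, 99.9). Both untreated libraries had a peak at each of these sites. Housekeeping genes (24), used by all cells, held 6 and 5. Eef2, elongation factor 2 (KO-only, 97.5; untreated 179 and 119), and Tbp, the TATA-binding protein (WT-only, 102; untreated 183 and 122), had edge peaks in 1 IL-4 library and both untreated ones. Edge peaks at 4 of the 24 housekeeping genes were called in KO IL-4 alone and at 2 in WT IL-4 alone.

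Promoter sequences under KO-only and WT-only peaks were alike and differed from those under shared peaks. RefSeq windows of 300 bases (250 before and 50 after the start) were available for 17469 genes, 21238 windows in all. A window was counted with a set if a peak overlapped it. Set apart were 125 windows that a shared peak reached in 1 IL-4 list alone. The sets were 986 windows with a KO-only peak, 791 with a WT-only peak, 4721 with a peak in both IL-4 libraries and 14615 with none. Median GC content was 61%, 61.3%, 62.7% and 53% in that order, and the ratio of observed to expected CpG was 0.80, 0.80, 0.83 and 0.35. A CCAAT box on either strand was found in 35.5% (32.5 to 38.6) of KO-only and 33.0% (29.7 to 36.4) of WT-only windows, against 50.7% (49.3 to 52.1) of windows with a peak in both and 38.2% of all windows. A GC box was found in 64.8% (61.7 to 67.8) and 66.4% (63.0 to 69.7), against 73.9% (72.6 to 75.1) and 46.2%. In GC and CpG content, library-specific promoters thus resembled shared ones, while in CCAAT boxes they stood near the level of windows without a peak (34.8%).

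Motifs of factors tied to IL-4 and macrophages were found at shares with overlapping intervals in both kinds of promoter. Only promoter windows were searched, so members away from start sites were not covered. The STAT6 motif, 1 of 18 motifs searched on both strands, was found in 5.68% (4.32 to 7.31) of KO-only and 5.56% (4.07 to 7.40) of WT-only windows and in 6.34% of all windows. The AP-1 motif (TGANTCA) was found in 4.46% and 3.67% (all windows 6.99%), the PU.1 motif (GAGGAAGT) in 2.74% and 2.78% (3.13%) and the general ETS motif (CCGGAAGT) in 11.5% and 10.9% (5.15%). The TATA box (TATAAA) was found in 7.40% (5.85 to 9.22) and 6.70% (5.06 to 8.67), against 4.15% (3.60 to 4.76) of windows with a peak in both and 16.1% of windows with none. Wider gaps, with intervals that still overlapped, were seen for the ISRE core of interferon response genes (2.33% of KO-only and 3.92% of WT-only windows). The same held for RUNX (2.84% and 4.17%) and the general STAT motif (7.10% and 5.69%). The ETS and PU.1 motifs share letters, and motifs may overlap. A match describes letters in the window and does not show that a factor bound there.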

How the data were processed

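ATAC-seq peak lists of 4 mouse macrophage libraries were used, 1 library per group, taken to their groups by genotype and treatment labels. Per the submitters' processing notes, the tools were Bowtie2 2.2.5, MACS 1.4.2 and HOMER, and the build was mm10. The deposited lists give the position and a score for each peak, and the score is the authors' value, whose unit no header states. Read depth was not known, so counts of peaks carry exact Clopper-Pearson 95% intervals for counting error only.

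A shared base (1 bp) made peaks of both IL-4 lists overlap, and members were then set against both untreated lists in the same way. Positions were set against RefSeq protein-coding genes (GRCm38.p6), with 1 kb for an edge and 10 kb for a locus. Promoter windows came from RefSeq and were matched by gene identifier. The overlap and position steps were tested on simulated data. With 1 library per group no p-value was computed. Alternatives were another overlap rule, score minimums, lists of equal length and other edge distances.

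The members and gene lists were chosen with earlier results of these data known. Named peaks were, in each direction, the 25 highest scores, the 10 highest at edges, the 10 highest distal ones and the 10 highest without an untreated peak. Named genes were 15 genes always given and, per list and direction, up to 3 genes with the highest library-specific peak at the locus; genes named only for an edge peak in 1 IL-4 library, and those with lower peaks, were chosen after their values were seen. Of the list entries 1 (Mx2) had no match. Values of 1 named gene are not reported here. Tables were handled in pandas 2.3.3 under Python 3.11.15, intervals came from SciPy 1.17.1 with NumPy 2.4.6, and plots from Matplotlib 3.10.9.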

Additional observations from a re-analysis of the deposited data

Results flagged for a closer look

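Some library-specific peaks had calls that ran in opposite directions in both genotypes when the untreated lists were set beside the IL-4 lists. There were 634 peaks called in KO IL-4 and WT untreated and not in WT IL-4 or KO untreated. Their median score in KO IL-4 was 60.8, not far above the lowest scores of 50, so a missing call does not show a loss. The reverse pattern, called in WT IL-4 and KO untreated and in neither other library, was found at 213 peaks (median score 59.1 in WT IL-4). As shares of each set, the counts were close to those of the same-genotype pattern: a peak in WT untreated alone was found for 20.6% of KO-only and 21.3% of WT-only peaks, and in KO untreated alone for 8.37% and 8.21%. The WT untreated list is longer than the KO untreated list (17339 against 13714 peaks), and the difference was not tested. The highest of the 634 lay at the edge of Ppm1l, a protein phosphatase gene (143 in KO IL-4 and 125 in WT untreated). Next came peaks inside Entpd1, the ectonucleotidase CD39 (131), and inside Serpinb6a, a protease inhibitor (129). The highest of the 213 lay 3469 bp from Bin3, a BAR-domain gene (109.5 in WT IL-4 and 55.2 in KO untreated), followed by the edge of 4931408C20Rik (107) and of Galm, a galactose mutarotase (104).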

How the results depend on the processing

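Of 87 alternative values over 11 results, 48 kept to the value reported within its counting interval or within 1.5 times for counts, and 4 changed sign, namely 2 each of the log2 ratio over all peaks and at list loci. The log2 ratio of KO-only over WT-only peaks turned to -0.010 with lists of equal length and to -0.0076 with the top 50% of that length by score. Equal lengths force this balance. With scores of 100 or more in both lists the log2 ratio was 0.41, and it was 0.51 for peaks of 100 or more without overlap at any score. A score of 100 need not mean the same in both lists. It kept 222 KO-only and 3957 shared peaks of KO IL-4, and 156 WT-only and 3710 shared peaks of WT IL-4, so lengths stayed unequal. KO-only and WT-only counts were 1244 and 936 with the first score rule, 222 and 156 with the second, and 1330 and 1337 in the top 50%. The shared percentage was 53.1 with reciprocal overlap of 50%, 57.5 with a 500 bp gap, 57.3 with scores of 100 or more and 57.6 in the top 50%. Edge percentages of KO-only and WT-only peaks were 57.5 and 59.2, 57.2 and 51.9, and 54.4 and 53.3 in the first score rule, the second and the top 50%. They were 40.5 and 40.2 with an edge of 2.5 kb, and 31.5 and 29.1 with start sites of the promoter table. The percentage of KO-only peaks with an untreated peak was 79.2 with reciprocal overlap, 99.0 and 96.8 with the score rules, 79.3 with equal lengths, 97.4 in the top 50% and 71.5 with untreated lists of equal length. For WT-only peaks it was 79.2, 99.3, 98.7, 97.2 and 70.4 with the same settings other than equal lengths. Genes with an edge peak in KO IL-4 only and in WT IL-4 only numbered 136 and 90 with the second score rule. The log2 ratio at list loci was 0.29 (-0.08 to 0.66), then -0.12 with that rule and -0.24 in the top 50%. Start sites of the promoter table and untreated lists of equal length were chosen after seeing the data. At 500 bp, 49 of the 50 named peaks stayed specific, and the exception was Wbp4 and Elf1 (138). No paired analysis was possible because each group has 1 library. The depth behind each list is unknown, so a peak missing from a list may lie just under the calling limit, where the lowest scores were 50.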

Other observations

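Loci with 3 or more library-specific peaks of 1 kind and none of the other were listed after the values were seen. There were 22 such loci with KO-only peaks and 14 with WT-only peaks. Pde4d, a phosphodiesterase that breaks down cyclic AMP, had 5 KO-only peaks over a span of 1302 kb, and Lyst, a regulator of lysosome size, had 4. Tnfrsf1b, the second receptor of tumour necrosis factor, and Mcl1, a survival factor of the BCL2 family, had 3 each. Cyth4, an activator of ARF GTPases, had 4 WT-only peaks. Elmo1 and Dock4, which act on the GTPase Rac, had 3 WT-only peaks each, as did Fth1, whose peaks are shared with its neighbour Best1.

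Seen from the untreated lists, 2151 of the 17339 WT untreated peaks (12.4%) overlapped a peak in KO IL-4 alone and 1867 (10.8%) in WT IL-4 alone. Of the 13714 KO untreated peaks, 1751 (12.8%) overlapped a peak in KO IL-4 alone and 1468 (10.7%) in WT IL-4 alone. Both untreated libraries thus had the larger share in KO IL-4, the longer of the IL-4 lists.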
